A study of Homo sapiens with 14 samples.

Results

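Glycolysis splits glucose into pyruvate in the cytosol, and proliferating cell lines are known for sending much of that pyruvate to lactate. The pentose phosphate pathway branches off at glucose 6-phosphate and yields NADPH and ribose 5-phosphate for nucleotides. Many steps can be catalysed by several isoenzymes, which are products of separate genes with different tissue distributions, so that 2 lines can run the same reaction with different proteins. The transcription factor HIF-1 is known to raise many of these genes when oxygen is low.

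The genes described are 34 protein-coding genes of glucose uptake, glycolysis, lactate handling, pyruvate entry into mitochondria and the pentose phosphate pathway. They were chosen by name from these pathways and by no cutoff on a measured value. Earlier results of these data were known when the list was made. Gene names were matched to identifiers through GENCODE on GRCh38, and 34 of 34 were found among 58440 counted genes. Every member had counts and passed the filter on low counts in each test. They fall into 2 glucose transporters, 6 genes of the hexose phosphate steps, 3 genes of fructose 2,6-bisphosphate enzymes, 9 genes of the triose and lower steps, 4 lactate genes, 4 pyruvate dehydrogenase genes and 6 pentose phosphate genes.

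RNA-seq was examined for 14 libraries from 2 human cell lines, HEK-293T, which derives from embryonic kidney and carries the SV40 large T antigen, and Jurkat, which derives from a T cell leukaemia. Cell suspensions were mixed at 100, 80, 60, 50, 40, 20 and 0% HEK cells, the rest being Jurkat, with 1000000 cells and 2 libraries for each mixture. No library was treated. HEK-293T was grown in DMEM and Jurkat in RPMI, with the same supplements, so line and medium cannot be told apart, and the lines met only at mixing. The labels call the 2 libraries of a mixture technical replicates, so every p-value below measures the spread between such libraries and not between cultures. Levels are given in CPM, the counts of a gene scaled to the total gene counts of its library without the spike-ins.

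Gene counts per library ranged from 4468822 to 28303668, both pure Jurkat libraries being the shallowest, and 3 counts were worth 0.106 to 0.671 CPM. Of 10 T cell markers, 9 were at most 1.69 CPM in pure HEK, BCL11B being at 11.5 and 11.8 CPM, against 25.3 to 1670 CPM for the 10 in pure Jurkat. Of 10 epithelial markers, KRT19 was at 0 in all 4 pure libraries and 8 were higher in HEK by the test below. The remaining 1 had a log2 difference toward Jurkat and was not called. CDH2, TEAD1 and CTNNA1 stayed above 14 CPM in Jurkat. The names of the deposited files form 2 groups, of 8 and 6 libraries, whose meaning is not stated. Both pure Jurkat libraries are in the first and both pure HEK libraries in the second, so line and file group cannot be told apart between the pure lines. Gene counts per spike-in count were 122 in pure HEK and 12.2 in pure Jurkat on average, a ratio of 10.0, so a level within the mRNA and a level per cell are different quantities here. From its own spike-in comparison the study put HEK mRNA content at approximately 6 times that of Jurkat. Cell numbers were set at mixing, and the bulk libraries do not measure them. Fewer cells of a line than set and less RNA per cell therefore cannot be told apart.

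The first question was which of these genes made up a different part of the mRNA in each line. Between the pure lines, 5 of the 34 members were higher in HEK and 6 were higher in Jurkat at an adjusted p of 0.05 (edgeR quasi-likelihood test, adjusted over all genes tested). Over all 15794 genes tested, 43.2% were called, 24.2% as higher in HEK and 19.0% as higher in Jurkat, so the members' 11 calls are a smaller share than the background. The median size of the log2 difference was 0.55 among the members and 0.87 among all genes, and 26 of 34 members differed by less than 1 on the log2 scale. The median signed difference was 0.22 for members and 0.07 for all genes. The HEK-higher genes were HK1, PFKL, PFKM, TPI1 and PDHB, and the Jurkat-higher genes were SLC2A3, PFKP, ALDOC, ENO2, SLC16A3 and PGD. Isoenzymes of one step went opposite ways in phosphofructokinase 1, where PFKM and PFKL stood against PFKP.

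**Figure D1:**
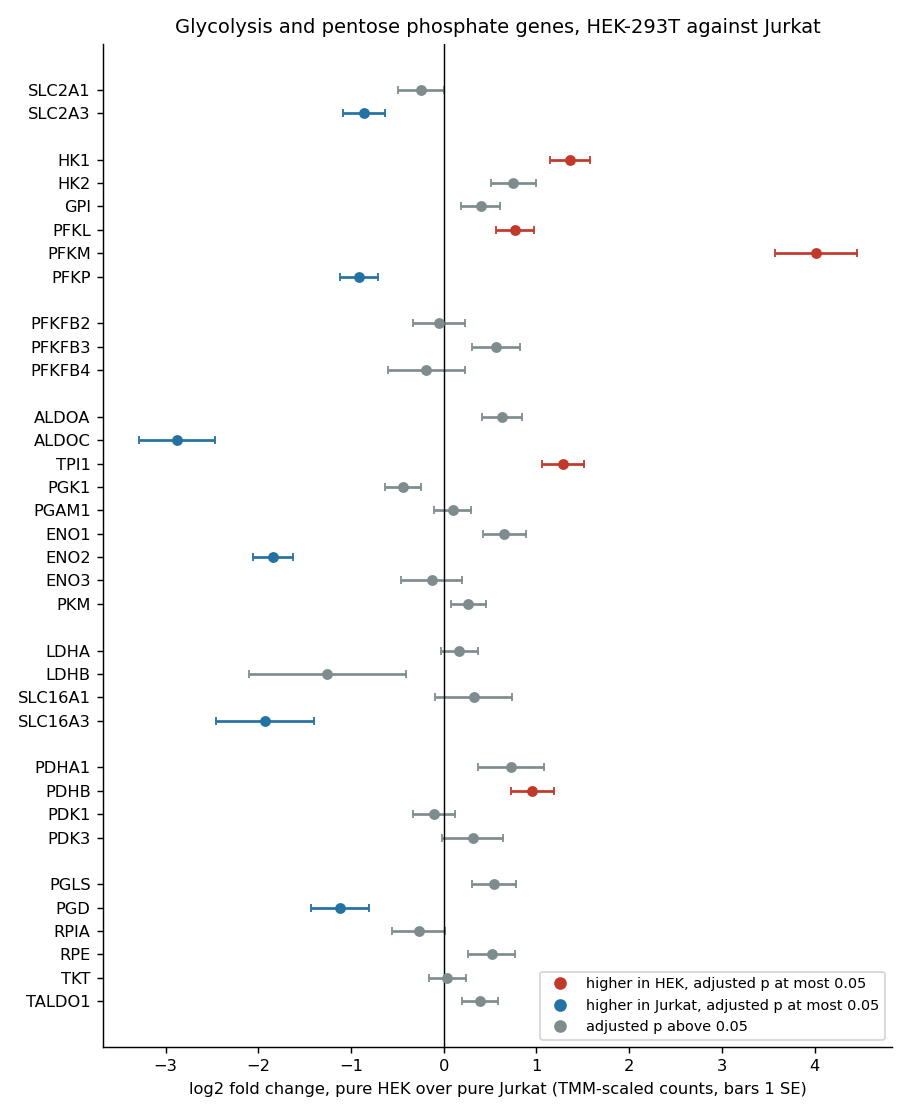
Log2 fold change of each of the 34 members between pure HEK and pure Jurkat libraries (n = 2 each), grouped by step of the pathway, with bars of 1 SE. PFKM stands at 4.01 and ALDOC at -2.88, while most genes of the lower steps lie within 1 of 0, and LDHB has the widest bar.

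The CPM of both libraries of one line lay above both of the other for 26 of 34 members, 19 with HEK above and 7 with Jurkat above, against 74.8% of all genes, and 15 of these 26 were not called. With scaling by total counts alone, 10 members were higher in HEK and 3 in Jurkat, since that scaling moves the median of all genes from 0.07 to 0.29. ALDOA, ENO1, HK2, PGLS and TALDO1 were called there and PGD, SLC16A3 and SLC2A3 were not. Leaving out pure HEK replicate 1 left 5 calls and leaving out replicate 2 left 4. PFKM kept its call in 12 of 12 alternatives, and HK1, ALDOC and ENO2 lost it only under DESeq2 with Bonferroni. PFKL and SLC2A3 lost it in 7 of 12, SLC16A3 in 6, PGD and PDHB in 5, PFKP in 3 and TPI1 in 2.

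Before the values, short stretches of promoter sequence are shown for ENO2 and ALDOC, which are minor isoenzyme genes that were higher in Jurkat. LDHA, a known HIF-1 target that was not called, is also shown and was picked after its values were seen. SLC16A3, a minor transporter gene that was also higher in Jurkat, had a match in 1 of 5 windows and is not shown. RefSeq promoter windows on GRCh38.p14 were matched for 31 of 34 members by symbol, and SLC2A3, PFKFB2 and SLC16A1 had none. The 250 bases before each start were searched for the core of the HIF-1 binding motif, ACGTG, and its reverse complement CACGT. The palindrome CACGTG therefore holds 1 match on each strand, and other factors bind it too. A match was found for 16 of 31 members, with 19 of 58 windows, against 18.5% of all 35116 windows and 21.7% of all genes with a window. Members with many annotated starts have more chances of a match, and a match is only a run of letters. Each line gives 30 bases, 5′ to 3′ on the gene's strand, with the core in capitals.
ENO2, chr12:6914449-6914478, plus strand: cacccgcgctcgtACGTGcgcctccgccgg
ALDOC, chr17:28577116-28577145, minus strand: aagtgcccggCACGTGgtaaagggattgtg
ALDOC, chr17:28576907-28576936, minus strand: cccccggaggagtCACGTagctctgcgaca
LDHA, chr11:18394366-18394395, plus strand: agactcccagcgCACGTGgagcagtctgcc
LDHA, chr11:18394470-18394499, plus strand: gactcaCACGTGggttcccgCACGTccgcc

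Matches were found for 3 of 5 HEK-higher members, 5 of the 5 matched Jurkat-higher members and 8 of 21 matched members without a call. LDHA, with 5 matches in its window, was among the members without a call, and so was PGK1 with 2.

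Glucose enters through facilitative transporters of the SLC2A family. SLC2A1, the widely expressed GLUT1, was at 11.4 CPM in each pure HEK library, against 9.85 and 13.1 CPM in pure Jurkat, and the 10 mixed libraries ran from 9.43 to 20.2 with a median of 14.7 CPM. The lines overlapped, and the log2 difference was -0.24 ± 0.25 (SE, adjusted p = 0.468). SLC2A3, the high-affinity GLUT3, was at 7.30 and 7.21 CPM in HEK and at 11.1 and 11.2 CPM in Jurkat. It was higher in Jurkat by 1.54-fold in mean CPM, with a log2 difference of -0.86 ± 0.22 (adjusted p = 0.0312). In TPM, a level per transcript length, SLC2A3 was at 8.88 and 9.44 in HEK and at 9.02 and 7.36 in Jurkat. The lines thus overlapped on that scale, and SLC2A3 had the lower mean in Jurkat. Its near-identical paralog SLC2A14 could share reads with it, and the call was lost in 7 of 12 alternatives, as given above.

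Hexokinases trap glucose as glucose 6-phosphate. HK1, the ubiquitous form, was at 39.8 and 42.4 CPM in HEK and at 14.8 and 12.6 CPM in Jurkat, with mixed libraries from 29.1 to 50.1 and a median of 38.0 CPM. It was 3.00-fold higher in HEK (log2 1.36 ± 0.22, adjusted p = 0.00749). HK2, the inducible form, was at 22.2 and 26.1 CPM in HEK and at 11.0 and 13.5 CPM in Jurkat, which do not overlap, but its log2 difference of 0.75 ± 0.24 was not called (adjusted p = 0.0556). GPI, which isomerises glucose 6-phosphate to fructose 6-phosphate, was at 145 and 132 CPM in HEK and at 82.9 and 96.8 CPM in Jurkat (log2 0.40 ± 0.21, adjusted p = 0.178).

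Phosphofructokinase 1 commits sugar to glycolysis and works as a tetramer built from muscle (PFKM), liver (PFKL) and platelet (PFKP) subunits. This step held the widest split between the lines, with PFKM and PFKL higher in HEK and PFKP higher in Jurkat. PFKM was at 29.9 and 24.9 CPM in HEK and at 2.24 and 0.806 CPM in Jurkat, where it rests on 10.0 and 5.0 counts, and at 13.0 CPM or more in each mixed library with a median of 23.0. Every mixed library thus stood above both pure Jurkat libraries. The mean ratio was 18.0 and the log2 difference 4.01 ± 0.44 (adjusted p = 0.00261).

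PFKL was at 32.3 and 32.8 CPM in HEK and at 15.7 and 16.9 CPM in Jurkat, a ratio of 2.00 (log2 0.77 ± 0.21, adjusted p = 0.0339). PFKP was at 28.5 and 28.1 CPM in HEK and at 48.3 and 43.0 CPM in Jurkat, so it was 1.61-fold higher in Jurkat (log2 -0.92 ± 0.20, adjusted p = 0.0190). Of these, PFKM overlaps SENP1 on the opposite strand. The paper describes its libraries as strand-specific, but counting is not stated to use strand. In share of the family's TPM, a level per transcript length, PFKP took 43.9 and 44.2% in HEK and 75.6 and 77.1% in Jurkat. PFKL took a mean of 35.4% in HEK and 19.0% in Jurkat, and PFKM 20.5% and 4.62%. In mixed libraries the PFKP share lay between 43.9 and 61.6%, with a mean of 45.2% at 80% HEK cells and 61.5% at 20% HEK cells.

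**Figure D2:**
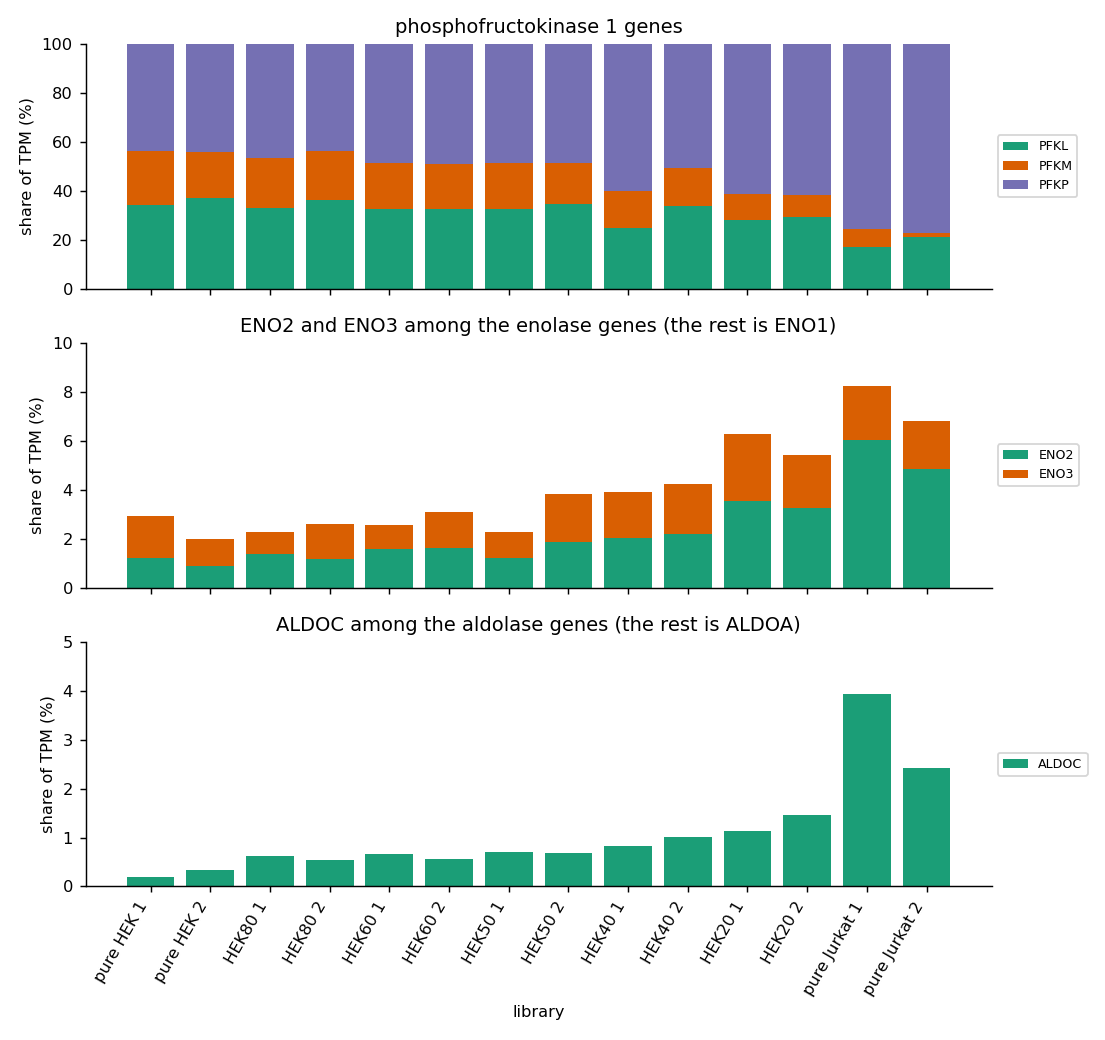
Share of summed TPM, in percent, held by each phosphofructokinase 1 gene, by ENO2 and ENO3 among enolases and by ALDOC among aldolases in all 14 libraries, ordered from pure HEK to pure Jurkat. The PFKP share is 43.9 to 61.6% in mixed libraries and 75.6 to 77.1% in pure Jurkat, while ENO2 and ALDOC stay below 7% and 4% of their families throughout.

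With 2 libraries a line, the smallest two-sided p that an exact permutation test of a share can give is 0.333, which is what the PFKP share gave. The difference in PFKP share, 32.3 percentage points, stands beside SDs of 0.21 in HEK and 1.03 in Jurkat. PFKP remained the largest part of the family in both lines on TPM. With shares of CPM instead, PFKL was the largest in both pure HEK libraries and PFKP in both pure Jurkat libraries. The libraries were primed from the poly(A) tail, and counts then need not scale with transcript length, so neither scale is certain for comparing genes. On TPM, 0 of 9 isoenzyme families changed their main member between the lines.

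The PFKFB genes encode the enzymes that make and remove fructose 2,6-bisphosphate, the activator of phosphofructokinase 1. None of the 3 was called by edgeR or by DESeq2, and 0 had an unadjusted p under 0.05. PFKFB3, the form with the highest kinase activity, was at 12.6 and 11.2 CPM in HEK and at 6.04 and 7.58 CPM in Jurkat (log2 0.56 ± 0.25, adjusted p = 0.132). PFKFB2 was between 4.92 and 6.60 CPM in the pure libraries and PFKFB4 between 1.80 and 2.77 CPM, with overlapping lines. PFKFB2 was above the highest pure library in 8 of 10 mixed libraries, at 6.10 to 11.0 CPM.

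Aldolases cleave fructose 1,6-bisphosphate. ALDOA, the main form outside liver and brain, was at 302 and 303 CPM in HEK and at 150 and 185 CPM in Jurkat, not called (log2 0.62 ± 0.21, adjusted p = 0.0671). It shares sequence with an overlapping readthrough gene. ALDOC, the brain form, went the other way, at 1.11 and 1.93 CPM in HEK and at 11.6 and 7.88 CPM in Jurkat, with a median of 4.04 CPM in mixed libraries. It was higher in Jurkat by 6.40-fold in mean CPM (log2 -2.88 ± 0.41, adjusted p = 0.00548). ALDOC overlaps RSKR on the same strand and could share reads with it. Its expected counts were not whole, at 10.45 and 29.25 in HEK and 51.66 and 48.87 in Jurkat. Its share of aldolase TPM was 0.264% in HEK and 3.18% in Jurkat, so ALDOA made up nearly all of the family in both.

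The enolases showed the same arrangement. ENO1, the ubiquitous enzyme, was at 769 and 898 CPM in HEK and at 401 and 506 CPM in Jurkat (log2 0.65 ± 0.23, adjusted p = 0.0723, not called). ENO2, the neuronal form, was at 9.95 and 9.24 CPM in HEK and at 28.2 and 30.6 CPM in Jurkat, and the mixed libraries from 9.89 to 24.3 CPM filled the space between. It was 3.07-fold higher in Jurkat (log2 -1.84 ± 0.21, adjusted p = 0.00304). ENO2 overlaps LRRC23 on the same strand and could share reads with it. Its share of enolase TPM was 1.03% in HEK and 5.44% in Jurkat. ENO3, the muscle form, was between 3.31 and 4.41 CPM in the pure libraries and overlaps PFN1 on the other strand.

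TPI1, which interconverts the triose phosphates, was at 342 and 433 CPM in HEK and at 127 and 145 CPM in Jurkat. It was 2.85-fold higher in HEK (log2 1.28 ± 0.23, adjusted p = 0.0104), the largest difference among the abundant members. Processed pseudogenes of TPI1 held at most 2.09% of the reads of the gene and its copies in any library, so they are small beside that difference. The ATP-yielding steps differed less. PGK1, phosphoglycerate kinase, was at 176 and 182 CPM in HEK and at 205 and 209 CPM in Jurkat (log2 -0.44 ± 0.19, adjusted p = 0.121), and PKM, pyruvate kinase, was at 267 and 270 CPM in HEK and at 191 and 191 CPM in Jurkat (log2 0.27 ± 0.19, adjusted p = 0.303). PGAM1, phosphoglycerate mutase, was between 140 and 191 CPM in the pure libraries (log2 0.10 ± 0.20, adjusted p = 0.730). GAPDH, the step between TPI1 and PGK1, is not among the 34, and was at 1034 and 935 CPM in HEK and at 1144 and 918 CPM in Jurkat (log2 -0.29 ± 0.21, adjusted p = 0.315).

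Lactate dehydrogenase interconverts pyruvate and lactate, with an A subunit suited to making lactate and a B subunit suited to using it. LDHA was at 387 and 391 CPM in HEK and at 318 and 275 CPM in Jurkat (log2 0.17 ± 0.20, adjusted p = 0.527). LDHB was at 722 and 720 CPM in HEK but at 2600 and 367 CPM in the pure Jurkat libraries, a 7.08-fold difference within 1 line. The lines therefore overlap, and the log2 difference was -1.26 ± 0.85 (adjusted p = 0.279). Of 1827 genes with at least 100 CPM in pure Jurkat, 6, or 0.328%, were at least as far apart between those libraries, LDHB itself being counted. The median fold between these libraries was 1.25.

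Which of the pure Jurkat libraries stands apart decides the direction for LDHB. Without pure Jurkat replicate 1 the log2 difference was 0.73 (adjusted p = 0.0608) and without replicate 2 it was -2.06 (adjusted p = 0.00669). The mixed libraries ran from 495 to 960 CPM, with a median of 750, and those with 20% HEK cells were at 960 and 646 CPM. A line fitted to the mixed libraries alone put LDHB at 748 CPM in HEK and at 740 CPM in Jurkat, the latter between 195 and 966 CPM when 1 library was left out, and this fit was chosen after the values were seen. The LDHB share of the family's TPM was 74.6 to 79.4% in the mixed and pure HEK libraries, 74.7% in pure Jurkat replicate 2 and 93.7% in replicate 1. LDHB processed pseudogenes held at most 0.462% of reads in any library.

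**Figure D3:**
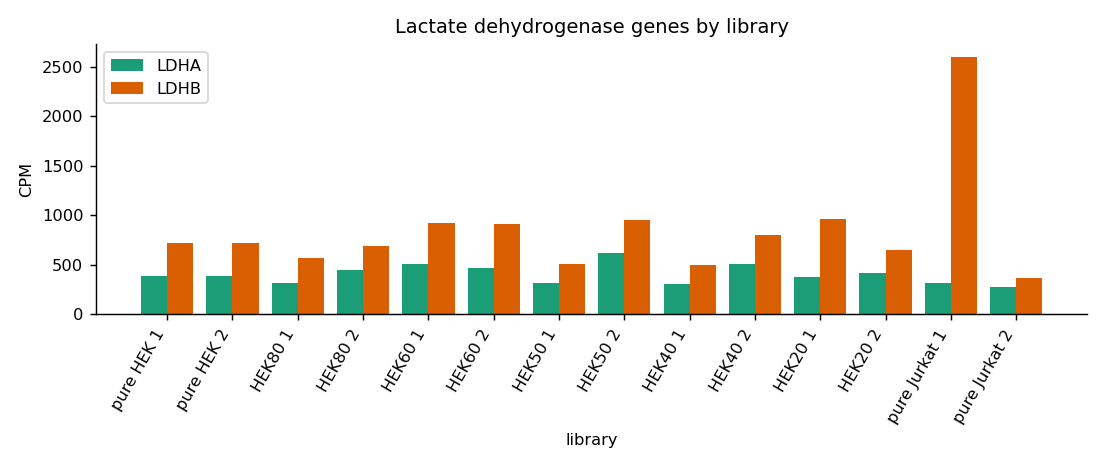
CPM of LDHA and LDHB in each of 14 libraries, with bars from 0. LDHB stands at 2600 CPM in pure Jurkat replicate 1 and between 367 and 960 CPM in the other libraries, while LDHA stays between 275 and 624 CPM.

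Monocarboxylate transporters carry lactate across the membrane with a proton. SLC16A1, or MCT1, was at 442 and 404 CPM in HEK and at 407 and 173 CPM in Jurkat, so the lines overlapped (log2 0.32 ± 0.42, adjusted p = 0.567). Without pure Jurkat replicate 1 it was called as higher in HEK (log2 1.05, adjusted p = 0.0299). SLC16A3, or MCT4, the form known for lactate export, was at 0.759 and 0.755 CPM in HEK and at 3.36 and 1.62 CPM in Jurkat, on 15 and 10.1 counts. It was called as higher in Jurkat (log2 -1.93 ± 0.53, adjusted p = 0.0355), though the call was lost in 6 of 12 alternatives. SLC16A1 held over 99% of the pair's TPM in both lines.

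Pyruvate dehydrogenase turns pyruvate into acetyl-CoA in mitochondria and is switched off by PDK kinases. PDHB, a subunit of its E1 component, was at 98.8 and 77.2 CPM in HEK and at 35.4 and 42.0 CPM in Jurkat, and was higher in HEK (log2 0.96 ± 0.24, adjusted p = 0.0265). PDHA1, its partner subunit, was at 122 and 148 CPM in HEK and at 92.3 and 47.5 CPM in Jurkat, and was not called (log2 0.73 ± 0.36, adjusted p = 0.155). The kinases were not called either, with PDK1 between 24.8 and 31.4 CPM and PDK3 between 2.74 and 5.08 CPM in the pure libraries.

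In the pentose phosphate pathway 1 of 6 members was called. PGD, which yields NADPH and ribulose 5-phosphate, was at 97.5 and 75.9 CPM in HEK and at 123 and 198 CPM in Jurkat (log2 -1.12 ± 0.31, adjusted p = 0.0379). PGLS, the lactonase of the same branch, was at 46.4 and 44.5 CPM in HEK and at 23.0 and 30.1 CPM in Jurkat (log2 0.54 ± 0.23, adjusted p = 0.119). These 2 enzymes of the oxidative branch thus had values in opposite directions, of which PGD alone passed the test.

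The non-oxidative branch shuffles sugar phosphates between both pathways. TKT, transketolase, was at 63.9 and 70.1 CPM in HEK and at 54.2 and 57.5 CPM in Jurkat (log2 0.04 ± 0.20, adjusted p = 0.898). TALDO1, transaldolase, was at 86.0 and 85.1 CPM in HEK and at 56.8 and 54.6 CPM in Jurkat (log2 0.39 ± 0.19, adjusted p = 0.155). RPE, the ribulose phosphate epimerase, was at 29.3 and 26.6 CPM in HEK and at 13.9 and 19.4 CPM in Jurkat (log2 0.52 ± 0.25, adjusted p = 0.159). RPIA, the ribose phosphate isomerase, was at 74.1 and 88.7 CPM in HEK and at 103 and 65.4 CPM in Jurkat, with the lines overlapping.

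Among the listed genes, the remaining isoenzyme families had the same main member in both lines. HK1 held 71.5% ± 1.44 of hexokinase TPM in HEK and 63.0% ± 7.44 in Jurkat (SD, n = 2 libraries each). SLC2A1 held 33.99% ± 0.33 of the glucose transporter pair in HEK and 38.1% ± 3.59 in Jurkat, and PDK1 held 69.4% ± 5.12 of the kinase pair in HEK and 78.4% ± 2.61 in Jurkat. PFKFB3 held 65.5% ± 7.37 in HEK and 55.5% ± 7.76 in Jurkat of the 3 PFKFB genes, with overlap between the lines. On CPM the share of SLC2A1 was 61.1% in HEK and 50.4% in Jurkat, so which transporter leads depends on the scale. PDK2, outside the 34, was at 7.49 and 7.03 TPM in HEK, against 5.59 and 7.49 for PDK1. In Jurkat PDK2 was at 3.89 and 3.39 TPM, against 6.36 and 5.56 for PDK1. SLC2A6, also outside, was at 4.38 and 3.3 TPM in HEK and at 7.81 and 10.5 in Jurkat. SLC2A3 was at 9.02 and 7.36 TPM in Jurkat. The main members thus hold among the listed genes only.

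The mixed libraries, which the comparison of pure lines did not use, were asked whether the same genes follow composition. The slope on the percentage of HEK cells over the 10 mixed libraries is given as the log2 change from 20 to 80% HEK cells. One member of 34 was called, ENO2, which fell by 1.21 ± 0.21 (adjusted p = 0.00297). Over all 17242 genes tested, 5.61% were called, 0.528% as rising and 5.08% as falling with more HEK cells. By the fit of mRNA shares, HEK supplied 63.4% of mRNA at 20% HEK cells and 95.9% at 80%. A gene expressed in HEK alone could then rise by only 0.60 on the log2 scale, and one expressed in Jurkat alone would fall by 3.16.

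ENO2 was at 24.3 and 23.5 CPM with 20% HEK cells, at 14.9 and 19.6 with 40%, at 12.7 and 22.7 with 50%, at 15.03 and 15.2 with 60%, and at 9.89 and 10.8 with 80%. The pairs at 20 and 80% were thus apart by more than their own spread, and the pair at 50% was the widest. Both libraries at 20% are in the first file group and both at 80% in the second. Composition and file group therefore cannot be told apart between those pairs. ALDOC had a slope of -1.12 ± 0.32 (adjusted p = 0.0683), PFKM of 0.79 ± 0.29 (adjusted p = 0.164) and PFKP of -0.59 ± 0.21 (adjusted p = 0.145), none past the threshold. The pure levels, weighted by the fitted HEK shares of mRNA, give expected values of -0.70 for ENO2, -1.29 for ALDOC, 0.55 for PFKM and -0.26 for PFKP. Those shares were fitted to the mixed libraries, so the expected values are not independent of them. Of the members called between the pure lines, the slope had the same sign for 4 of 5 HEK-higher genes, all but PDHB at -0.37 ± 0.45, and for 6 of 6 Jurkat-higher genes. Over all genes called between the pure lines, the sign was the same for 86.0% of the HEK-higher and 88.6% of the Jurkat-higher genes, so the members' counts were near that background. With a term for the file groups the members' counts were 3 of 5 and 5 of 6, against 70.2 and 74.3% of all such genes, with PFKL at -0.46, TPI1 at -0.12, SLC16A3 at 0.43 and PDHB at 0.11 having turned sign.

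**Figure D4:**
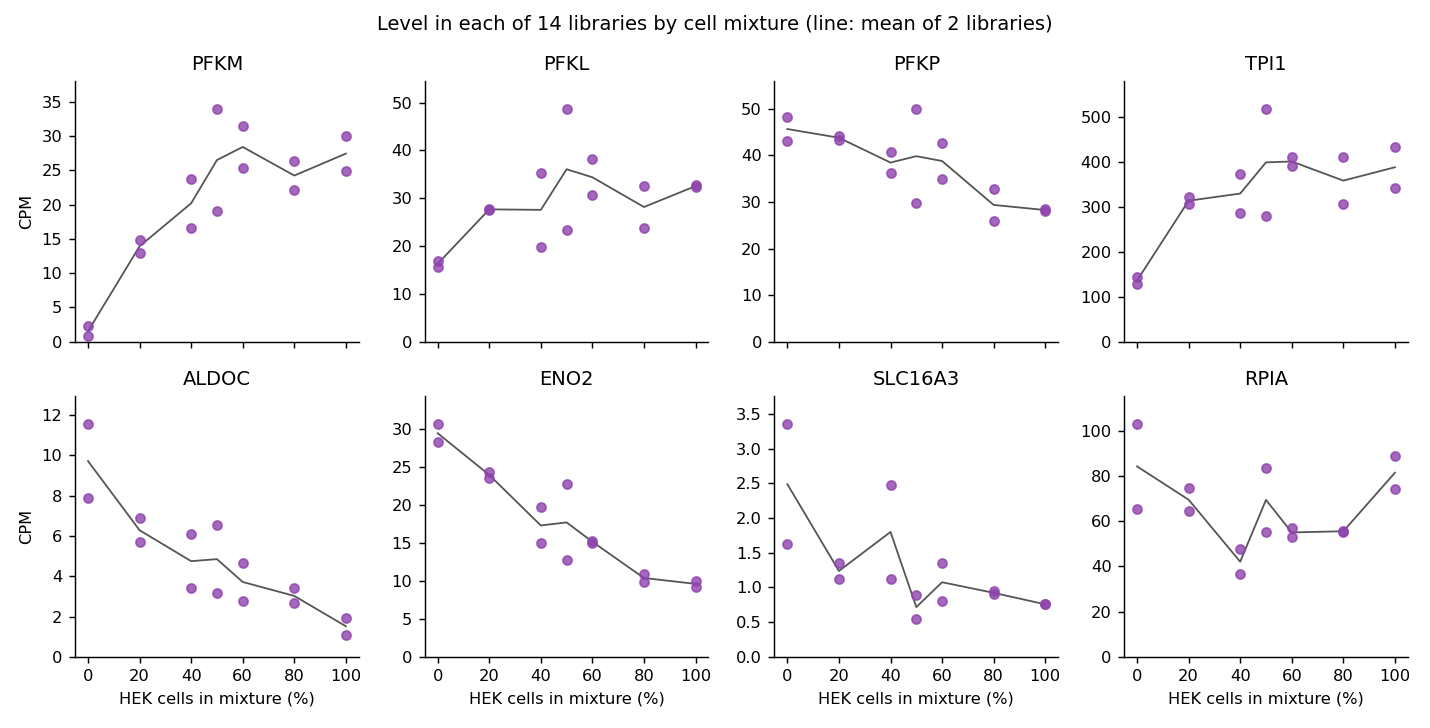
CPM of 8 members in each of 14 libraries against the percentage of HEK cells, with a line through the mean of the 2 libraries at each mixture. ENO2 and ALDOC decline as the HEK percentage goes up, PFKM reaches 13.0 CPM or more in every mixture with HEK cells, and RPIA is lower in most mixtures than in either pure line.

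A term for the file groups, which share the 50 and 60% mixtures, left ENO2 called and added ALDOC. At 50% HEK cells, PFKL was at 23.4 CPM in the library of the group of 8 and at 48.6 CPM in the other, and its slope with that term was -0.46 (adjusted p = 0.608) against 0.05 ± 0.30 without it.

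Per spike-in count, a scale closer to mRNA per cell since each library began with the same number of cells, 33 of 34 members were higher in HEK by edgeR, 31 by DESeq2, and the difference was above 0 for all 34. Over all genes tested, 95.8% were called on this scale, 92.5% as higher in HEK and 3.22% as higher in Jurkat, with a median log2 difference of 3.61 against 3.77 for the members. The members' count is thus near that of genes in general. Spike-ins were added after the mRNA had been captured on beads, so losses before that step are not covered. PFKM stood farthest from that median at 7.55 ± 0.71. ALDOC was the member not called (0.54 ± 0.65, adjusted p = 0.406), and ENO2 (1.71 ± 0.56, adjusted p = 0.00248) and SLC16A3 (1.53 ± 0.73, adjusted p = 0.0384) were the lowest of the others. ENO2 was 3.07-fold higher in Jurkat as a part of mRNA and 3.29-fold higher in HEK per spike-in count.

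The level of each member in a mixture was also set against the sum of its pure levels, weighted by the fitted HEK share of mRNA. A departure was counted where all 10 mixed libraries lay on one side and the mean log2 of observed over expected was beyond 0.5. One member of 34 met this, ALDOC, above in 10 of 10 libraries with a mean of 0.57 ± 0.42 (SD). Among all genes tested, 3.17% met it, 0.405% above and 2.77% below. The departures of ALDOC ran from 0.04 to 1.31, and its pure HEK levels of 1.11 and 1.93 CPM carry much of its expected value in HEK-rich mixtures.

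RPIA lay on the other side, below in 9 of 10 libraries with a mean of -0.52 ± 0.33, and its mixed libraries ran from 36.5 to 83.4 CPM with a median of 55.5. It was below the lowest pure library in 8 of 10 mixed libraries, which 1.20% of all genes tested were in at least 8. In the other direction PKM was above the highest pure library in 9 of 10 mixed libraries, at 265 to 465 CPM, and PFKFB2, PDK3 and TKT in 8 of 10, against 0.848% of all genes tested in at least 8. These counts were looked at after the departures were seen and have no test.

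Many members moved together from library to library. The median departure of the members was 0.49 in the second library with 50% HEK cells, where 31 of 34 were above their expected level, and -0.22 in the first with 40%, where 10 were. The same libraries had medians of 0.10 and -0.18 over all genes tested. The members' summed part of gene counts without LDHB was 0.532% in the former and 0.317% in the latter. Ribosomal protein genes were at 14.8% and 10.1% of counts in the same libraries, the highest and lowest among the mixed ones, and their part in the result was not tested.

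**Figure D5:**
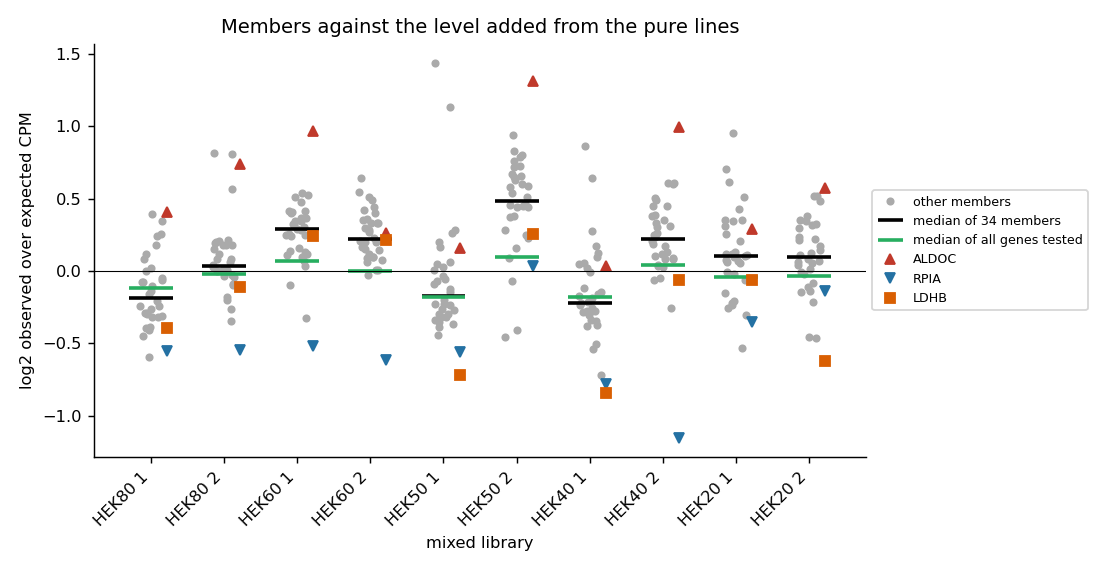
Log2 of observed over expected CPM for the 34 members in each of 10 mixed libraries, with medians of members and of all genes tested. ALDOC is above 0 in 10 of 10 libraries, RPIA below in 9 of 10, and the members' medians run from -0.22 to 0.49.

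Other genes of glucose metabolism, listed apart from the 34, were read from the same test between the pure lines. Of 63 listed, 42 were tested, 13 were higher in HEK and 6 in Jurkat, with a median log2 difference of 0.66 against 0.07 over all genes. The share called, 45.2%, was near the 43.2% of all genes. GPD2, the mitochondrial glycerol phosphate dehydrogenase, was at 13.1 and 13.8 CPM in HEK and at 0 counts in both pure Jurkat libraries. Between the pure libraries it was at least 23.3-fold higher when Jurkat is set to 3 counts per library. With 20% HEK cells, however, GPD2 was at 15.9 and 27.5 CPM, above both pure HEK libraries. Its slope over the mixed libraries was -0.55 ± 0.46, not called, and the cause was not tested. SLC2A12, a glucose transporter, was at 21.8 and 15.5 CPM in HEK and at 0.633 and 0.251 CPM in Jurkat. BSG, the chaperone of MCT1 and MCT4 (log2 1.61 ± 0.20, adjusted p = 0.00380), and SLC2A8, an intracellular transporter (log2 1.54 ± 0.29, adjusted p = 0.0113), were higher in HEK as well.

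In the other direction SLC16A7, or MCT2, the high-affinity monocarboxylate carrier, was at 3.38 and 3.76 CPM in HEK and at 40.5 and 30.8 CPM in Jurkat (log2 -3.53 ± 0.26, adjusted p = 0.000980). It also fell with the HEK percentage over the mixed libraries, by 1.32 (adjusted p = 0.0361). SLC2A6, a transporter (log2 -1.53 ± 0.28), PDP2, the phosphatase that reactivates pyruvate dehydrogenase (log2 -1.39 ± 0.20), and H6PD, an enzyme of the endoplasmic reticulum (log2 -1.32 ± 0.22), were higher in Jurkat.

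Of 20 HIF targets outside glycolysis, 19 were tested, 10 were higher in HEK and 1 in Jurkat, 57.9% called against 43.2% of all genes. The log2 difference was above 0 for 10 of them and below 0 for 9, so the list was split in direction and its median, 0.98 against 0.07 over all genes, was the value of the lowest of the genes above 0. Those higher in HEK included AK4, a mitochondrial adenylate kinase, at 130 and 117 CPM in HEK and 14.1 and 17.7 CPM in Jurkat (log2 2.72 ± 0.24, adjusted p = 0.00139). NDRG1 (log2 2.30 ± 0.48), VEGFA, the angiogenic growth factor (log2 1.67 ± 0.24), and P4HA2, a collagen prolyl hydroxylase at 9.73 and 11.5 CPM in HEK and 0.224 and 0 CPM in Jurkat, were higher in HEK too. BNIP3L, a mitophagy receptor, was higher in Jurkat (log2 -1.78 ± 0.32, adjusted p = 0.0106).

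Of 13 regulators of glucose metabolism, 5 were higher in HEK and 2 in Jurkat, set beside 24.2 and 19.0% of all genes. TXNIP and ARRDC4, glucose-induced arrestins that restrain glucose uptake, were both higher in HEK, TXNIP at 105 and 89.3 CPM in HEK and 15.4 and 17.6 CPM in Jurkat (log2 2.32 ± 0.23, adjusted p = 0.00184) and ARRDC4 at 14.3 and 12.7 CPM in HEK and 2.01 and 1.77 CPM in Jurkat (log2 2.603 ± 0.28, adjusted p = 0.00255). These values are mRNA levels and say nothing of whether a protein is made.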

How the data were processed

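Libraries were primed with barcoded oligo-dT and amplified by PCR. The authors aligned reads to GRCh38 and the ERCC sequences with STAR 2.6.1b and deposited RSEM 1.3.1 expected counts, not normalized, and TPM per gene. The annotation release is not given in the sources used here. The series table of counts was not used. Here expected counts were rounded, and names and coordinates came from GENCODE release 44 (57754 of 58440 identifiers matched, the rest holding at most 0.327% of counts). ERCC rows were left out of CPM and library sizes. Pure lines (n = 2 against 2) and the slope over 10 mixed libraries were tested with edgeR 4.0.16 (glmQLFit, TMM, filterByExpr, Benjamini-Hochberg over all genes tested), in R 4.3.3. The test per spike-in count used ERCC totals as library sizes. DESeq2 1.42.0, other scalings and filters and left-out libraries were alternatives. Replicates differed by more than counting noise (chi-square per degree of freedom 20.7 to 147). Floors and intervals cover counting error only, and PCR reads are not independent molecules.

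The HEK share of mRNA in each mixture was fitted by least squares over all genes tested, and expected and observed CPM had 0.5 added before the log2. The 34 members were matched as named in the list. Of the other lists, the text names GAPDH and up to 4 genes in each direction with the largest log2 difference among those called and at 10 CPM or more in one line, and some of the genes this rule takes are not reported here. Genes named as gained or lost under an alternative were taken after their values were seen. Members and lists were chosen with earlier results of these data known. Tested on data simulated for the comparison of pure lines (15170 genes), the test recovered 6% of genes changed 2-fold, 76% at 4-fold and 100% at 8-fold, and 13 of 154 calls were unchanged genes. For the slope (16967 genes) it recovered 12%, 88% and 100%. Only 50 genes were changed at each fold, a far smaller part than the 43.2% called between the pure lines. The adjusted p is then stricter than in that comparison, so the recovered shares need not hold there. An uncalled difference near 2-fold is still not a sign of equal levels.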

Additional observations from a re-analysis of the deposited data

How the results depend on the processing

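Of 408 member results between the pure lines under 12 alternatives each, 337 kept their direction and side of the threshold, 38 lost a call, 14 gained one and 19 changed direction, the last all for members not called. Calls for HEK went from 5 to 10 and for Jurkat from 6 to 3 with total counts alone, and for HEK to 9 with no filter, where LDHB was also called (-1.08, adjusted p = 0.000363). DESeq2 with Bonferroni, the correction of the study, called 1 member in all, 1 for HEK and 0 for Jurkat. Leaving out 1 library gave 4 to 10 calls, 2 to 5 for HEK and 2 to 5 for Jurkat. A line with 1 library left is there assumed to vary like the other line. Over mixed libraries DESeq2 called 3, all falling (ENO2, ALDOC, PFKP), the file-group term 2, both falling (ENO2, ALDOC), and the HEK share of mRNA in place of the cell percentage 2, of which 1 rose (PFKM). Leaving out 1 library gave 1 to 2 calls, all falling, with ALDOC added without the second library of 50% or the first of 40% HEK cells. Families with another main member were 1 with CPM shares, and departures from additive mixing were 1 to 2 when a pure library was left out. Per spike-in count the calls were 30 to 33 and none was for Jurkat, with LDHB, SLC16A3 and ENO2 each losing the call in at least 2 alternatives.

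Direction changed as follows for log2 differences that were not called. With total counts alone PFKFB2 was 0.17, PFKFB4 0.033, ENO3 0.095 and PDK1 0.12. With no filter PFKFB2 was 0.10, ENO3 0.025 and PDK1 0.054, and with RLE factors TKT was -0.0017. Leaving out 1 library gave ranges of -0.18 to 0.10 for PFKFB2, -0.54 to 0.095 for PFKFB4, -0.017 to 0.22 for PGAM1, -0.30 to 0.085 for ENO3, -2.06 to 0.73 for LDHB, -0.16 to 1.05 for SLC16A1, -0.27 to 0.086 for PDK1, -0.55 to 0.076 for RPIA and -0.020 to 0.13 for TKT. Over mixed libraries the file-group term gave -0.46 for PFKL, -0.12 for TPI1, 0.43 for SLC16A3 and 0.11 for PDHB, and leaving out 1 library gave -0.0064 to 0.25 for PFKL. The cause of these changes was not tested. No paired analysis was possible because the labels number no replicates. Depth limits the low members most, PFKM and SLC16A3 in pure Jurkat resting on 5.0 to 15 counts.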
